A study of Mus musculus with 14 samples.

Results

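The 10 transcription factor genes Tcf7l2, Olig1, Olig2, Sox10, Sox8, Sox17, Nkx2-2, Nkx6-2, St18 and Zfp488 were followed through the differentiation of cultured mouse oligodendrocyte precursor cells (OPCs) into oligodendrocytes (OLs). They were chosen by gene symbol out of the 23427 genes of the expression table, as factors known for driving or accompanying this differentiation, and all 10 symbols were found. Levels are FPKM, fragments scaled to exon length and library size, which allows levels of different genes to be set side by side. Of the 10 genes, 8 carried signal, and Sox17 and Nkx6-2 did not.

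The study asked what the RNA-binding protein Secisbp2l (Sbp2l) contributes to OL differentiation. Wild-type OPCs of strain C57BL/6J were isolated from the cortices of postnatal pups by immunopanning. In this method, cells are caught on a dish coated with an antibody, here against the receptor Pdgfra. The paper's culture method starts differentiation by withdrawing the mitogen PDGF-AA and adding the thyroid hormone T3. Its transfection method does not name the medium. Bulk mRNA was sequenced in 14 libraries, 2 for each of 7 groups. All groups were wild type. The paper's OPC medium also held supplements, among them insulin, CNTF and progesterone, and the growth protocol in the sample labels differs from it. No treatment of single groups is named in the sources used here beyond those below. Day0 cells were taken at the start. The other 6 groups were taken at day 3: untreated cells (non-treat), cells given transfection reagent alone (mock), cells given either of 2 non-targeting siRNAs (NC siRNA#1 and NC siRNA#2), and cells given an siRNA against Sbp2l (siSbp2l) or against Pdgfra (siPdgfra). Such short double-stranded RNAs trigger the breakdown of matching mRNA, usually not of all of it. The knockdowns are therefore cultures of mixed cells with transiently lowered mRNA, not clones or mutants.

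In OL biology, the basic helix-loop-helix proteins Olig1 and Olig2 specify the lineage, and the SRY-box protein Sox10 keeps it and switches on myelin genes, with Sox8 as its close relative. Nkx2-2 and Nkx6-2 are homeodomain repressors, known in differentiation of OLs and in the ordering of their myelin and paranodes. Tcf7l2 is the nuclear partner of beta-catenin that appears in OLs as they start to differentiate, and Zfp488 and St18 are zinc finger proteins of the lineage, of which Zfp488 is known to promote differentiation together with Olig2. Sox17 belongs to another Sox subgroup and is otherwise best known from endothelium and endoderm.

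The genes lie on 8 chromosomes of the mm10 assembly, and Olig2 (chr16:91225550-91228677) and Olig1 (chr16:91269769-91271939) are neighbours on the plus strand, 41091 bases apart. On the plus strand lie also Tcf7l2 (chr19:55741810-55933655) and St18 (chr1:6487231-6860940). On the minus strand lie Sox10 (chr15:79154913-79164490), Sox8 (chr17:25565893-25570686), Sox17 (chr1:4490928-4496413), Nkx2-2 (chr2:147177546-147186402), Nkx6-2 (chr7:139579376-139582797) and Zfp488 (chr14:33967070-33978764). Promoter sequence from RefSeq (GRCm38.p6, the mm10 assembly) was found for 6 of the 10 genes, namely Nkx2-2, Nkx6-2, Zfp488, Olig2, Sox8 and Tcf7l2. Of these, 4 are printed 5′ to 3′ because 3 of the genes (Tcf7l2, Zfp488 and Sox8) rose and 1 (Olig2) fell between Day0 and day 3. The windows are chr19:55741560-55741809 (plus strand) for Tcf7l2, chr14:33978765-33979014 (minus strand) for Zfp488, chr17:25570687-25570936 (minus strand) for Sox8 and chr16:91225300-91225456 (plus strand) for Olig2, where the window was ended before the first exon that GENCODE M21 gives the gene. Capitals mark matches to the motifs searched.
Tcf7l2: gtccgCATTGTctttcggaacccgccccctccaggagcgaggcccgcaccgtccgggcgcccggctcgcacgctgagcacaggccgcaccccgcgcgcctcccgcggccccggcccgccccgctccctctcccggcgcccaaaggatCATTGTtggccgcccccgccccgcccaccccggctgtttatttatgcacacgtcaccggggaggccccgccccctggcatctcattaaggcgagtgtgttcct
Zfp488: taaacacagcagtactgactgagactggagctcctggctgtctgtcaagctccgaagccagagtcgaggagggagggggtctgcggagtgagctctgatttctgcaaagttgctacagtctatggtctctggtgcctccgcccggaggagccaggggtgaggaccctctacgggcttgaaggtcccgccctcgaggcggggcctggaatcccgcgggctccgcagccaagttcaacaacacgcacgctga
Sox8: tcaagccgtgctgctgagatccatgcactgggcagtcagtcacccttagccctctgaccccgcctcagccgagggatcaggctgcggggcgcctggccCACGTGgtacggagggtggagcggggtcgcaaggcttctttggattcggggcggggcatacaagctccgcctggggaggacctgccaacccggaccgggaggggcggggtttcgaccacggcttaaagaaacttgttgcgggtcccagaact
Olig2: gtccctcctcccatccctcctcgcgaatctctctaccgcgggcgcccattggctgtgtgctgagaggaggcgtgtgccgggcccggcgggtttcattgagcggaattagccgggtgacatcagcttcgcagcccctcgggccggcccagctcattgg

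On both strands, the 250 bases before each start were searched for the TCF core CTTTGAT, the Sox cores ACAAAG and ACAATG, the E-box CANNTG bound by basic helix-loop-helix proteins, the Nkx core TNAAGTG and the nuclear receptor core AGGTCA, which thyroid hormone receptors bind. The Tcf7l2 window held 2 matches to ACAATG, 245 and 103 bases before the start, and ACAATG was found in 10.7% of the 32851 windows of this length in the promoter table. The Olig2 window held 1, 68 bases before the start and past the end of the printed stretch. The E-box, present in 66.2% of all windows, was matched once in the Sox8 window and not in those of Tcf7l2, Olig2 or Zfp488, so that the Zfp488 window held none of the 6 motifs. Part of the Sox8 window overlaps an RNA gene on the opposite strand, 2810468N07Rik, which starts at chr17:25570811. The Sox8 E-box, 152 bases before the start, lies within the span of that gene. In the Nkx2-2 window 3 E-boxes were found, 1 of them within the single match to the Nkx core (10.1% of all windows). Neither the TCF core (3.21%) nor AGGTCA (14%) was matched in any of the windows of these genes, and ACAAAG (16.5%) was matched only before a second, internal start of Tcf7l2, which also held a match to the Nkx core. These matches describe the letters of these windows and no binding.

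Depth ranged from 6560798 fragments in NC siRNA#2 replicate 2 to 31621343 in Day0 replicate 1, as recovered from the steps between low FPKM values, and the 8 genes with signal rested on 712 or more fragments in each library, apart from St18. Secisbp2l stood at 3.82 and 3.91 FPKM in siSbp2l and between 135 and 255 FPKM in the 8 control libraries of day 3. Pdgfra stood at 2.69 and 3.30 FPKM in siPdgfra and between 32.4 and 72.1 FPKM in the controls. Replicate pairs were close, except for the non-treat pair: the log2 difference between its libraries had an SD of 0.46 over genes, against 0.15 to 0.20 in the other 6 pairs, and went with the GC content of the transcript (Spearman's rho −0.77 across genes, which are not independent replicates). In that pair, Olig1 and Sox10, the most GC-rich of the 8 genes with 61.1% and 61.8% GC, were lower in replicate 2 by log2 differences of −0.91 and −0.90, while St18 (41.7% GC) was higher by 0.56. Each result that used this group is therefore also given without it where that changes a call.

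**Figure D1:**
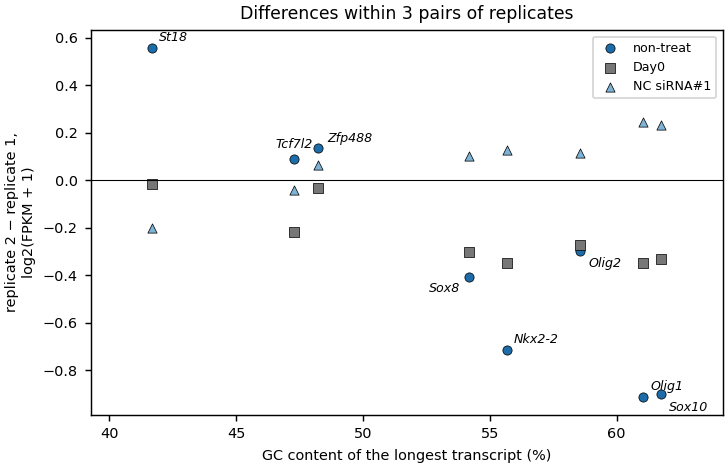
Log2(FPKM + 1) of replicate 2 minus replicate 1 for the 8 detected genes (vertical axis) against the GC content of the longest transcript in percent (horizontal axis), for the non-treat, Day0 and NC siRNA#1 pairs. Non-treat values run from 0.56 for St18 down to −0.91 for Olig1, and Day0 values stay between −0.02 and −0.35.

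The labelled cell type was checked against its markers. The 5 precursor markers (Pdgfra, Cspg4, Ptprz1, Cacng4 and Lhfpl3) summed to 860 to 895 FPKM at Day0, and the 10 myelin-forming OL markers rose from 791 to 872 FPKM at Day0 to at least 7075 FPKM in each control library of day 3. Beside 26.4% of all genes called in either direction, all 10 OL markers were called higher in the controls than at Day0. Of these, Mag, Mog, Mobp and Ermn had Day0 means of 0.55, 0.07, 0.13 and 0.19 FPKM. They entered the tests through libraries of day 3 and had to differ from Day0. In siSbp2l the OL markers summed to 2847 to 3049 FPKM, below every control library, and 5 of the 10 were called lower, beside 7.19% of all genes called. In siPdgfra they summed to 5319 to 6110 FPKM, with 1 called lower and 1 higher, beside 7.99% of all genes called. The precursor markers summed to 271 to 526 FPKM in the controls, to 553 to 571 in siSbp2l, where Pdgfra and Cacng4 were called higher, and to 136 to 149 in siPdgfra, whose siRNA target is 1 of the 5. The 5 markers of committed cells (Gpr17, Bmp4, Enpp6, Bcas1 and Fyn) summed to 467 FPKM at Day0. They summed to 1433 to 1463 in NC siRNA#1, 2000 to 2880 in the other controls, 1120 to 1161 in siSbp2l and 1227 to 1374 in siPdgfra. In either knockdown, 4 were lower and 1 higher at an adjusted p under 0.05, beside 53.4% (siSbp2l) and 55.4% (siPdgfra) of all genes.

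Markers of other cells were low for microglia (0.53 to 9.46 FPKM summed over 6 genes), endothelium (0.87 to 2.43 over 7 genes, Cldn5 and Cdh5 at 0) and mural cells or fibroblasts (up to 0.37 over 6 genes). Nearly all of the microglia sum was P2ry12, the other 5 markers staying at 0.0643 FPKM or less. P2ry12 was called higher in siPdgfra than in the controls (1.08) and in the controls than at Day0 (1.25). With a Day0 mean of 0.60 FPKM, it entered the latter test through day 3. The 6 astrocyte markers summed to 33.8 to 36.1 FPKM at Day0, 74.6 to 135 in the controls, 89.3 to 89.8 in siSbp2l and 37.6 to 38.3 in siPdgfra, with Aqp4 and Gja1 under 1 FPKM in every library. In siPdgfra Gfap (−1.46), Slc1a3 (−1.55) and Slc1a2 (−1.28) were called lower than the controls. The 4 Schwann cell markers summed to 12.1 to 21.1 FPKM in the controls, 22.7 in both Day0 libraries, 20.4 to 21.4 in siPdgfra and 37.5 to 40.6 in siSbp2l, where Cdh19 (1.30) and Pmp22 (1.18) were called higher and Ngfr stayed under 1 FPKM. Cdh19 was called higher in siPdgfra as well (1.70), where Pmp22 was lower and not called (−0.88). The 5 neuronal markers found in the table summed to 27.4 to 29.3 FPKM at Day0, 47.8 to 87.7 in non-treat, 100.1 to 102.5 in mock, 269 to 276 in NC siRNA#1, 119 to 127 in NC siRNA#2, 199 to 201 in siSbp2l and 236 to 240 in siPdgfra. Most of that sum was Tubb3 (22.8 to 24.6 FPKM at Day0 and 267 to 273 in NC siRNA#1), while Snap25 and Syt1 were lower in every control library than at Day0 (Snap25 0.23 to 0.75 FPKM against 1.78 and 2.30, Syt1 0.35 to 1.70 against 2.41 and 2.71). Rbfox3 went the other way, from a mean of 0.08 FPKM at Day0 to 0.29 in the controls and 1.15 in siSbp2l. Stmn2 stayed at 0.0758 FPKM or less. Against the controls, Syt1 was called higher in siSbp2l (1.72) and in siPdgfra (1.64). The part of these markers in the results below was not tested. In bulk RNA, fewer cells of a type and less RNA per cell cannot be told apart.

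Sox17 was listed at 0 FPKM in all 14 libraries. A count of 0 allows up to 3 fragments, or 0.0303 FPKM in Day0 replicate 1 and 0.146 FPKM in NC siRNA#2 replicate 2, for counting error only. The other genes of its subgroup, Sox7 and Sox18, did not exceed 0.0467 and 0.0891 FPKM. Nkx6-2 was listed at 0 in 12 libraries, at 0.0382 FPKM in non-treat replicate 1 and at 0.0414 FPKM in NC siRNA#2 replicate 1, so that neither gene was detectable beyond single fragments at this depth. They were left out of the tests, which took genes with at least 1 FPKM in at least 2 libraries: 8 of the 10 genes, among 11874 genes tested in all 14 libraries and 11650 in the 12 libraries of day 3. Nkx6-2 overlaps Inpp5a on the opposite strand, a gene listed at 5.66 to 20.1 FPKM.

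At Day0 the genes covered more than 4 orders of magnitude in FPKM. The mean level was 988 ± 168 for Olig1 (SD, n = 2 libraries, as for all means here), 365 ± 48.7 for Olig2, 151 ± 24.7 for Sox10, 46.3 ± 7.0 for Sox8, 30.1 ± 0.50 for Zfp488, 22.1 ± 3.93 for Nkx2-2, 8.33 ± 1.00 for Tcf7l2 and 0.0214 ± 0.0082 for St18, and no libraries of neighbours in this order overlapped. In mock cells at day 3, the order was Olig1 (410.4 ± 4.60), Sox10 (288 ± 4.30), Olig2 (159.95 ± 0.16), Sox8 (157 ± 4.29), Zfp488 (75.8 ± 2.38), Tcf7l2 (59.96 ± 1.44), Nkx2-2 (30.4 ± 2.27) and St18 (8.55 ± 0.69). Olig2 and Sox8 differed there by less than the SD of Sox8. Sox10 thus stood above Olig2 at day 3 and below it at Day0.

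**Figure D2:**
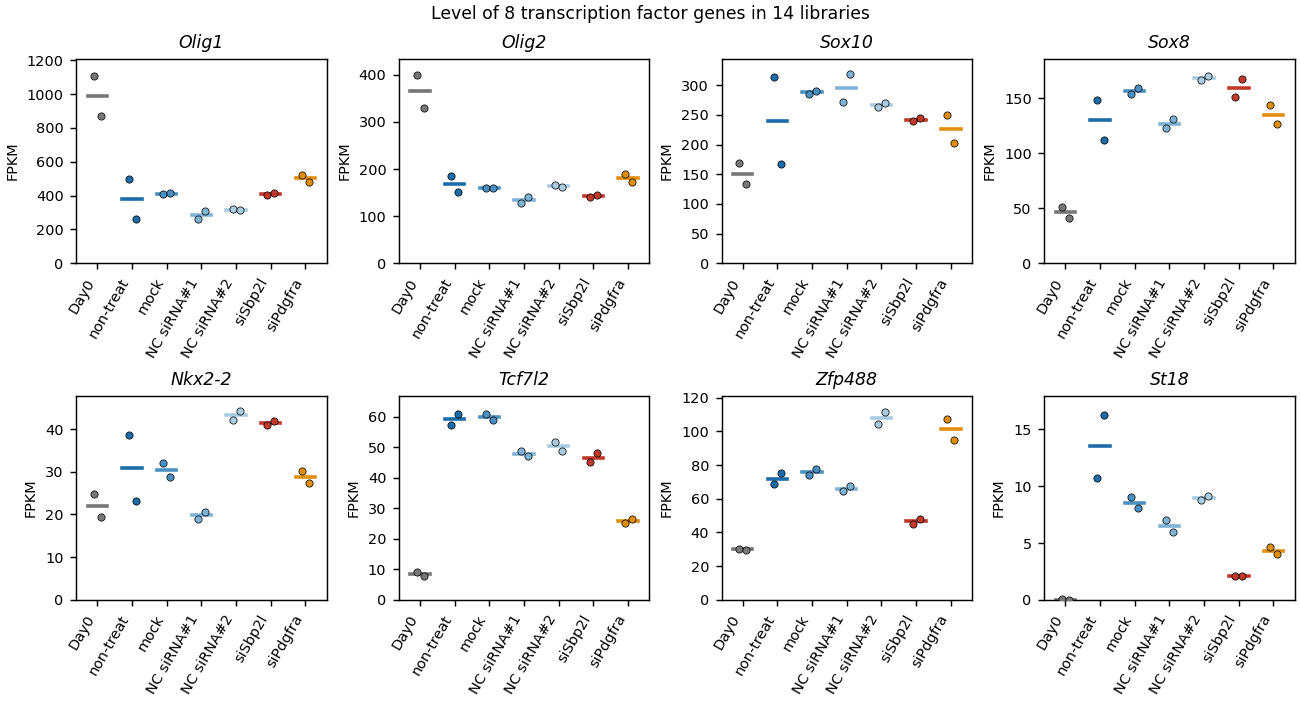
FPKM (vertical axis, linear, from 0) of the 8 detected genes in each of the 14 libraries by group; points are libraries and bars the mean of the 2. Olig1 and Olig2 are highest at Day0, Tcf7l2 is lower in siPdgfra than in every control library of day 3, and Zfp488 and St18 are lower in siSbp2l than in every control library.

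The first comparison asked how the factors change as OPCs differentiate, setting the equally weighted mean of the 4 control groups of day 3 against Day0. Of the 8 tested genes, 6 changed at least 2-fold with an adjusted p under 0.05 (limma on log2(FPKM + 1), Benjamini-Hochberg over all genes tested), and this call was made for 26.4% of the 11874 genes. St18, Tcf7l2, Sox8 and Zfp488 rose, and Olig1 and Olig2 fell. All 8 passed an adjusted p of 0.05 with no fold threshold, as did 73.9% of all genes, but Nkx2-2 did not under every alternative. The median log2 fold change was 1.10 over the 8 genes and −0.05 over all genes. For 6 of the 8 tested genes both Day0 libraries lay outside the range of the 8 control libraries, against 62.3% of the genes tested. St18, at 0.0272 and 0.0156 FPKM at Day0, passed the filter through day 3 alone and had to differ from Day0. It is part of each of these counts and of the median.

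Olig1 read 1107 and 869 FPKM at Day0. At day 3 it read 495 and 263 in non-treat, 407 and 414 in mock, 262 and 311 in NC siRNA#1 and 318 and 314 in NC siRNA#2. Every control library was below both Day0 libraries, and the log2 fold change was −1.53 ± 0.18 (SE, adjusted p = 1.67e-05). Its neighbour Olig2 read 399 and 331 FPKM at Day0 and 129 to 185 in the controls, with no overlap and a log2 fold change of −1.22 ± 0.10 (adjusted p = 4.42e-07). Olig1 stood at 2.63 and 2.77 times the FPKM of Olig2 at Day0, at 2.67 and 1.74 times in non-treat, at 2.55 and 2.58 times in mock, at 2.03 and 2.23 times in NC siRNA#1 and at 1.92 and 1.93 times in NC siRNA#2.

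Sox8 showed the reverse course. It read 51.3 and 41.4 FPKM at Day0 and 112 to 170.5 in the control libraries, a log2 fold change of 1.63 ± 0.11 (adjusted p = 1.59e-07). Sox10 read 168 and 133 FPKM at Day0, 313 and 167 in non-treat, 285 and 291 in mock, 271 and 318 in NC siRNA#1 and 264 and 270.3 in NC siRNA#2. The low non-treat library overlapped Day0, and Sox10 rose by a log2 fold change of 0.84 ± 0.19 (adjusted p = 0.00178), short of 2-fold, and by 1.002 without Day0 replicate 1. Sox10 thus stood at 3.22 and 3.28 times the FPKM of Sox8 at Day0 and at 1.49 to 2.42 times in the control libraries.

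Tcf7l2 read 9.04 and 7.62 FPKM at Day0. The controls read 57.2 and 60.9 in non-treat, 61.0 and 58.9 in mock, 48.6 and 47.2 in NC siRNA#1 and 51.6 and 48.8 in NC siRNA#2, all far above Day0, and the log2 fold change was 2.56 ± 0.07 (adjusted p = 7.58e-11). Zfp488 read 30.4 and 29.7 FPKM at Day0 and 64.6 to 111 in the controls, and rose by 1.36 ± 0.07 (adjusted p = 1.38e-08). St18 was almost silent at Day0, with 0.0272 and 0.0156 FPKM, about 5.30 and 2.16 fragments. It read 5.97 to 16.3 FPKM in the controls. The difference of 3.30 ± 0.12 on the log2(FPKM + 1) scale (adjusted p = 7.85e-10) moved between 1.49 with a pseudocount of 5 and 6.23 with one of 0.1, so that its size depended on the pseudocount and its direction did not.

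Nkx2-2 changed least and was the only one of the 8 whose control groups lay on both sides of Day0. It read 24.9 and 19.3 FPKM at Day0, 38.7 and 23.2 in non-treat, 32.0 and 28.8 in mock, 18.9 and 20.7 in NC siRNA#1 and 42.2 and 44.3 in NC siRNA#2. The mean of the 4 control groups exceeded Day0 by a log2 fold change of 0.42 ± 0.15 (adjusted p = 0.0260). Against single control groups, the log2 fold change from Day0 was −0.14 for NC siRNA#1 (adjusted p = 0.530) and 0.95 for NC siRNA#2 (adjusted p = 0.00109). The transcript on the opposite strand, Nkx2-2as, read 0.10 to 1.08 FPKM, and whether fragments were counted by strand is not given in the sources used here.

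**Figure D3:**
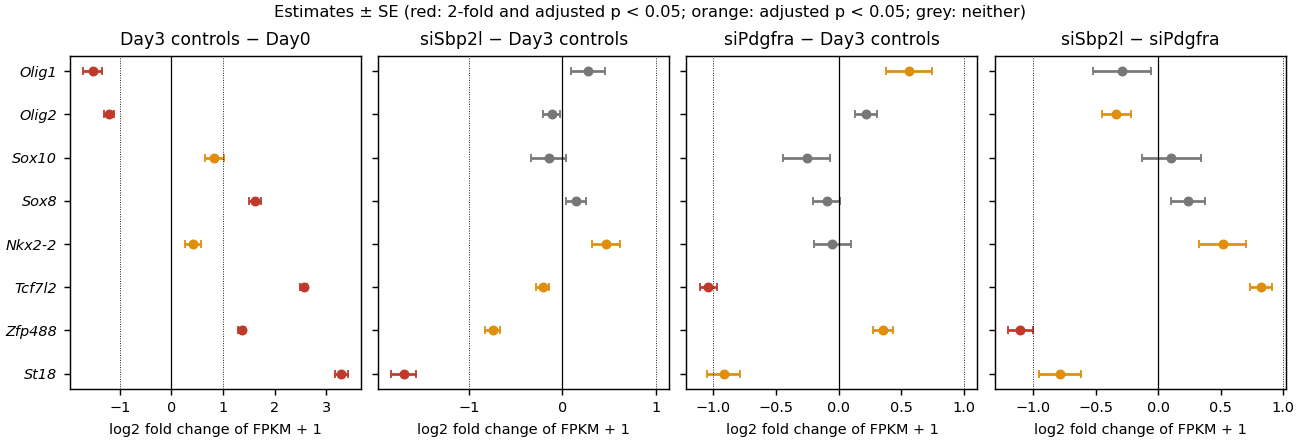
Log2 fold changes of FPKM + 1 (horizontal axis) with SE for the 8 detected genes in 4 comparisons: controls of day 3 minus Day0, siSbp2l minus controls, siPdgfra minus controls, and siSbp2l minus siPdgfra; dotted lines mark 2-fold. The estimates run from −1.53 for Olig1 to 3.30 for St18 in the first panel, and St18 (−1.70), Tcf7l2 (−1.04) and Zfp488 (−1.10) are the only genes past 2-fold in the other panels, in this order.

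The 4 control groups were then compared among themselves, since every statement on a knockdown rests on them. Between the 2 non-targeting siRNAs, 1 of the 8 genes was called, against 3.99% of the 11650 genes. It was Nkx2-2, which was lower in NC siRNA#1 than in NC siRNA#2 by a log2 fold change of −1.09 ± 0.19 (adjusted p = 0.00240), or −0.96 with a pseudocount of 5, short of 2-fold. Zfp488 was also lower in NC siRNA#1, with 64.6 and 67.5 FPKM against 104 and 111, a log2 fold change of −0.70 ± 0.10 (adjusted p = 0.000774). These were the 2 genes with an adjusted p under 0.05 at any fold, as had 21% of all genes.

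Between the non-targeting siRNAs and the cells without siRNA (non-treat and mock), limma called 0 of the 8 genes at 2-fold, 2 at an adjusted p under 0.05 and 3 at an unadjusted p under 0.05, while 1.28% of all genes were called at 2-fold and 28.1% without a fold threshold. Tcf7l2 was lower with non-targeting siRNA by −0.27 ± 0.06 (adjusted p = 0.00891), with 47.2 to 51.6 FPKM in the 4 libraries against 57.2 to 61.0 in the 4 without siRNA, and these ranges did not overlap. St18 was lower by −0.44 ± 0.12 (adjusted p = 0.0205), with 5.97 to 9.14 FPKM against 8.06 to 16.3.

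The next comparison asked which of the factors change with the knockdown of Sbp2l. Against the mean of the 4 controls, 1 of the 8 genes was called, St18, and 7.19% of the 11650 genes were. With no fold threshold, St18, Zfp488 and Tcf7l2 were lower and Nkx2-2 higher, 4 of 8 genes beside 53.4% of all genes. The median was −0.13 over the 8 genes and 0.15 over all genes, and since scaling the libraries by median ratios moved the median of all genes to 0.00, values near 0 in this comparison depend on the scaling. Scaled in this way, Nkx2-2 no longer passed (0.30, adjusted p = 0.0790) and Olig2 did (−0.28, adjusted p = 0.0128). For Zfp488 and St18, 2 of the 8 tested genes, both siSbp2l libraries lay outside the range of the 8 control libraries, against 44.3% of the genes tested.

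St18 read 2.11 and 2.07 FPKM in siSbp2l, below all 8 control libraries (5.97 to 16.3) and above Day0. The log2 fold change was −1.70 ± 0.13 (adjusted p = 4.82e-06), and it was called against each control group, with log2 fold changes of −2.21 for non-treat, −1.63 for mock, −1.27 for NC siRNA#1 and −1.69 for NC siRNA#2. The sum of the OL markers was lower and that of the precursor markers higher in siSbp2l than in every control library, as given above, beside the falls of St18 and Zfp488. St18 alone of the 8 genes was called in 1 direction against all 4 controls, as were 3.23% of all genes. With a pseudocount of 5, St18 fell by 0.99 on the log2 scale and was no longer past 2-fold.

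Zfp488 read 45.1 and 48.2 FPKM in siSbp2l, between Day0 (30.4 and 29.7) and all 8 control libraries (64.6 to 111). Relative to the mean control its log2 fold change was −0.75 ± 0.08 (adjusted p = 3.47e-05). The size depended on the control group, from −0.49 against NC siRNA#1 (adjusted p = 0.00276) to −1.19 against NC siRNA#2 (adjusted p = 1.36e-05), the 1 control against which it passed 2-fold. St18 and Zfp488 were the 2 genes with an adjusted p under 0.05 against all 4 controls, beside 21.8% of all genes.

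The values of Tcf7l2 and Nkx2-2 depended on the control group. Tcf7l2 read 44.95 and 48.1 FPKM in siSbp2l, within or just under the range of the non-targeting siRNA libraries (47.2 to 51.6). It was lower than the cells without siRNA, by −0.34 against non-treat and −0.36 against mock (adjusted p = 0.00995 and 0.00830, limma), and did not pass against NC siRNA#1 (−0.04, adjusted p = 0.729) or NC siRNA#2 (−0.11, adjusted p = 0.358). Nkx2-2 read 41.0 and 41.9 FPKM in siSbp2l, at the level of NC siRNA#2 (42.2 and 44.3). It passed 2-fold against NC siRNA#1 (1.03, adjusted p = 0.00149) and did not pass against NC siRNA#2 (−0.06, adjusted p = 0.822).

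The lineage factors gave no call. Olig1 read 406 and 416 FPKM in siSbp2l (log2 fold change 0.27 ± 0.18, adjusted p = 0.236), and Olig2 read 141 and 146 (−0.12 ± 0.09, adjusted p = 0.296). Sox10 read 240.2 and 244 (−0.15 ± 0.19, adjusted p = 0.528), and Sox8 read 152 and 167 (0.14 ± 0.11, adjusted p = 0.291). All 8 of these values lay inside the range of the controls, and these SEs would leave small changes undetected. For Sox10 this rested on non-treat replicate 2 (167 FPKM) alone. Both siSbp2l libraries lay below every other control library (264 to 318), as did both siPdgfra libraries (249.7 and 202). The higher Olig1 value (416) was inside through non-treat replicate 1 (495) alone, the next control library being mock at 414. Olig1 stood at 2.86 and 2.87 times the FPKM of Olig2 in siSbp2l and at 2.76 and 2.77 times in siPdgfra.

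**Figure D4:**
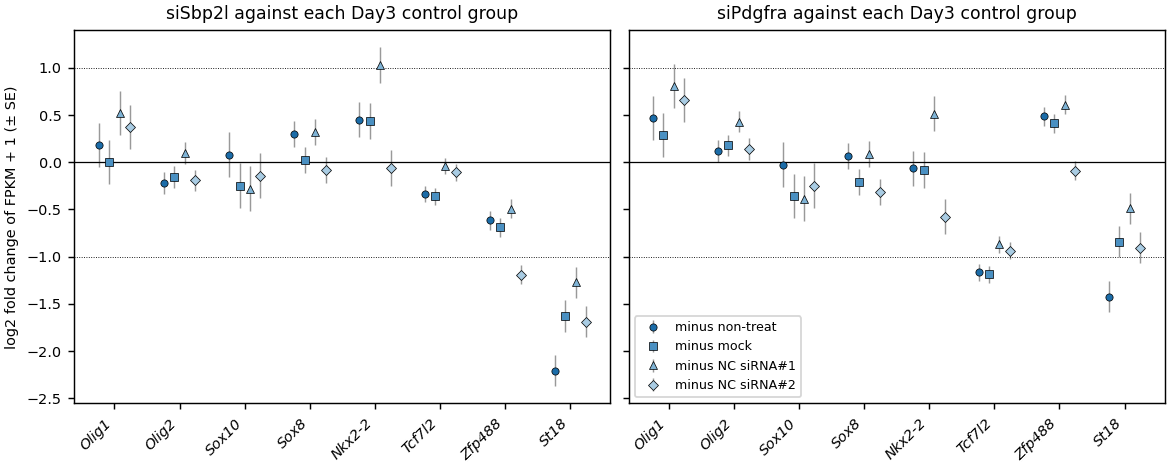
Log2 fold changes of FPKM + 1 (vertical axis, ± SE) of the 8 detected genes in siSbp2l (left) and siPdgfra (right) against each of the 4 control groups of day 3; dotted lines mark 2-fold. St18 in siSbp2l lies between −1.27 and −2.21 against all 4 controls, while Nkx2-2 runs from −0.06 against NC siRNA#2 to 1.03 against NC siRNA#1.

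The siPdgfra comparison asked the same of cells with lowered mRNA of Pdgfra, the PDGF receptor of OPCs. Against the mean of the controls, 1 of the 8 genes was called, Tcf7l2, beside 7.99% of all genes, and 4 passed with no fold threshold (Tcf7l2 and St18 lower, Olig1 and Zfp488 higher), beside 55.4%. Of these 4, Olig1 and Zfp488 did not pass under every alternative. Tcf7l2 read 25.2 and 26.3 FPKM, below all 8 control libraries (47.2 to 61.0) and above Day0 (9.04 and 7.62). The astrocyte markers were also lower in siPdgfra (37.6 to 38.3 FPKM against 74.6 to 135 in the controls), as were the OL markers (5319 to 6110 against 7075 or more) and the precursor markers (136 to 149 against 271 or more). The log2 fold change of Tcf7l2 was −1.04 ± 0.07 (adjusted p = 1.64e-06), and it stood at −1.16 and −1.19 against non-treat and mock and at −0.87 and −0.93 against NC siRNA#1 and NC siRNA#2. Without the non-treat group it was −0.996 (adjusted p = 3.12e-06), and with a pseudocount of 5 it was −0.94, so that the 2-fold call depended on both choices and the direction did not.

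St18 read 4.62 and 4.04 FPKM in siPdgfra, also below all 8 control libraries, with a log2 fold change of −0.91 ± 0.13 (adjusted p = 0.000267), or −1.04 and past 2-fold with a pseudocount of 0.1. Tcf7l2 and St18 were the 2 of the 8 tested genes for which both siPdgfra libraries lay outside the control range, as for 44% of the genes tested. They were also the 2 with an adjusted p under 0.05 against all 4 controls, beside 22.4% of all genes. At 2-fold, limma called 0 of the 8 genes in 1 direction against all 4 controls, 2 at an unadjusted p under 0.05, and 3.61% of all genes at 2-fold.

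Zfp488 read 108 and 95.1 FPKM in siPdgfra, at the level of NC siRNA#2 (104 and 111) and above the other 6 control libraries. Relative to the mean control it changed by 0.35 ± 0.08 (log2, adjusted p = 0.00376), and relative to NC siRNA#2 by −0.09 (adjusted p = 0.490). Olig1 read 523 and 479 FPKM (0.56 ± 0.18, adjusted p = 0.0262), and its lower library lay under the highest control library. Olig2, with 189.8 and 173 FPKM, did not pass (0.22 ± 0.09, adjusted p = 0.0646), nor did Sox10 with 249.7 and 202 (−0.25 ± 0.19, adjusted p = 0.270), Sox8 with 144 and 126 (−0.10 ± 0.11, adjusted p = 0.475) or Nkx2-2 with 30.1 and 27.3 (−0.05 ± 0.15, adjusted p = 0.782).

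The knockdowns were compared directly, with a fold change that does not use the controls and an SE from the spread of all 12 libraries of day 3. Of the 8 genes, 1 was called, Zfp488, beside 13.7% of all genes. It read 45.1 and 48.2 FPKM in siSbp2l against 108 and 95.1 in siPdgfra, a log2 fold change of −1.10 ± 0.10 (adjusted p = 1.25e-05). With no fold threshold 5 of the 8 passed, beside 52% of all genes, of which Olig2 and Nkx2-2 did not pass under every alternative. Tcf7l2 was higher in siSbp2l (0.83 ± 0.09, adjusted p = 3.43e-05), as was Nkx2-2 (0.52 ± 0.19, adjusted p = 0.0412). St18 was lower in siSbp2l (−0.78 ± 0.17, adjusted p = 0.00292), as was Olig2 (−0.33 ± 0.11, adjusted p = 0.0322). The libraries of the knockdowns did not overlap for any of these 5 genes. Markers moved with this comparison as well: in siSbp2l against siPdgfra, the precursor markers summed to 553 to 571 against 136 to 149 FPKM, the OL markers to 2847 to 3049 against 5319 to 6110 and the astrocyte markers to 89.3 to 89.8 against 37.6 to 38.3. The neuronal markers summed to 199 to 201 against 236 to 240 FPKM and the Schwann cell markers to 37.5 to 40.6 against 20.4 to 21.4, and the part of these markers in the differences was not tested.

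Against Day0, 5 of the 8 genes were called in siSbp2l (22.8% of all genes) and 4 in siPdgfra (27.7% of all genes), and 8 and 7 passed with no fold threshold (65.4% and 67.8% of all genes). In siSbp2l, St18, Sox8 and Tcf7l2 rose and Olig1 and Olig2 fell, while Zfp488 rose by a log2 fold change of 0.62 ± 0.09 (adjusted p = 0.000140), under 2-fold. In siPdgfra, St18, Zfp488, Sox8 and Tcf7l2 rose, and Olig2 and Olig1 were lower by −0.9996 ± 0.12 and −0.97 ± 0.23, just short of 2-fold. With a pseudocount of 5, St18 rose by 0.50 in siSbp2l, where it had been 1.60, and by 0.89 in siPdgfra, where it had been 2.38, and was no longer past 2-fold in either. Olig2 in siPdgfra passed 2-fold with median-ratio scaling (−1.02), upper-quartile scaling (−1.01) and a pseudocount of 0.1 (−1.003). These comparisons share the Day0 libraries with the first one, and St18 again entered them through day 3 alone. Nkx2-2 passed in siSbp2l (0.89 ± 0.19, adjusted p = 0.00185) and did not in siPdgfra (0.37 ± 0.19, adjusted p = 0.109).

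The factors were read beside 2 lists of other regulators of the lineage. Of 16 further factors known to promote differentiation, all tested, 5 were higher and 9 lower in the controls than at Day0 at an adjusted p under 0.05, beside 73.9% of all genes in either direction, with a median log2 fold change of −0.28 (all genes −0.05). Called, beside 26.4% of all genes, were Myrf, the master regulator of myelin genes (listed under its older symbol Gm98), and Zfp536 upward, and Tcf3, Smarca4 and Sox3 downward. In siSbp2l 10 were higher and 3 lower than the controls (median 0.54, all genes 0.15), beside 53.4% of all genes in either direction, with Rxrg, Tcf4 and Chd7 called higher and Myrf lower, beside 7.19% of all genes. Rxrg, a retinoid X receptor gene, read 4.60 and 4.78 FPKM in siSbp2l and 0.67 or less in every other library, so that it passed the filter through siSbp2l alone and had to differ there. Without it, 9 of 15 were higher and 3 lower (median 0.53), with 2 called higher and 1 lower. Myrf read 80.8 and 93.9 FPKM in siSbp2l, below all 8 control libraries (140.01 to 256), a log2 fold change of −1.15 ± 0.13 (adjusted p = 4.85e-05), with the OL markers lower there too (2847 to 3049 FPKM against 7075 or more). In siPdgfra 9 were higher and 2 lower, beside 55.4% of all genes in either direction (median 0.25, all genes 0.09), and the chromatin remodeller Smarca4 was called higher, beside 7.99% of all genes called.

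Of 10 factors known to hold OPCs back from differentiating, 8 were tested. In siSbp2l all 8 were higher than the controls at an adjusted p under 0.05, beside 53.4% of all genes in either direction, with a median log2 fold change of 1.12 (all genes 0.15), and 4 of them were called, beside 7.19% of all genes. These were Id2, an inhibitor of helix-loop-helix proteins (1.77 ± 0.09, adjusted p = 4.73e-07), the Notch targets Hes1 (1.94 ± 0.11) and Hes5 (1.25 ± 0.27), and Sox11 (1.46 ± 0.09). Id2 read 162 and 155 FPKM in siSbp2l, above both Day0 libraries (115 and 116) and all 8 control libraries (27.8 to 66.8). In siPdgfra limma called 0 of the 8 at 2-fold, beside 7.99% of all genes. At an adjusted p under 0.05, 1 was higher and 3 lower, beside 55.4% of all genes in either direction. At an unadjusted p under 0.05, 5 passed, and the median was −0.14 (all genes 0.09).

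**Figure D5:**
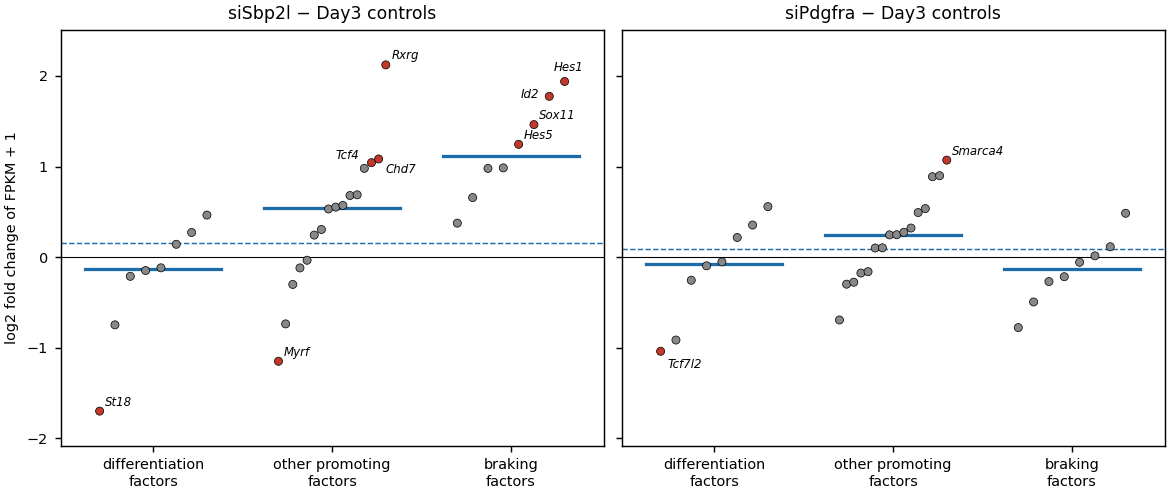
Log2 fold changes of FPKM + 1 (vertical axis) for the 8 detected differentiation factors, 16 other promoting factors and 8 braking factors, each point a gene, in siSbp2l (left) and siPdgfra (right) against the controls of day 3; red points are called, bars are list medians and the dashed line the median of all genes. The median of the braking factors is 1.12 in siSbp2l and −0.14 in siPdgfra.

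Among 14 family relatives of the 10 factors, 3 passed the filter. Tcf7l1, the relative of Tcf7l2 with the highest mean level, rose from 4.40 and 2.77 FPKM at Day0 to 26.7 to 42.6 FPKM in the controls (log2 fold change 2.999 ± 0.16, adjusted p = 1.18e-08). It did not pass in siPdgfra, where it read 32.7 and 32.1 FPKM (−0.11 ± 0.14, adjusted p = 0.508), nor in siSbp2l (−0.14 ± 0.14, adjusted p = 0.394). Sox9, the remaining member of the subgroup of Sox8 and Sox10, fell from 29.1 and 25.2 FPKM at Day0 to 4.83 to 8.70 in the controls (−1.87 ± 0.09, adjusted p = 7.95e-09). It read 9.14 and 10.7 FPKM in siSbp2l, above every control library (0.50 ± 0.09, adjusted p = 0.00148), and 2.99 and 3.61 in siPdgfra, below every one (−0.84 ± 0.09, adjusted p = 4.91e-05). Between the knockdowns it was called, higher in siSbp2l by a log2 fold change of 1.34 ± 0.12 (adjusted p = 1.11e-05). Myt1, the closest detected relative of St18, was higher in siPdgfra, with 116 and 107 FPKM against 35.4 to 75.3 in the controls (1.19 ± 0.08, adjusted p = 1.79e-06), and did not pass in siSbp2l (0.08 ± 0.08, adjusted p = 0.419). Olig3, Nkx2-4 and Nkx2-9 were at 0 in every library, and the remaining 8 relatives stayed under 1 FPKM.

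For each of the 8 genes, the tested genes with the most similar course were named by Pearson's r of log2(FPKM + 1) over the 14 libraries, which share groups, so that r mostly reflects the step from Day0 to day 3. Tcf7l2 was followed by Mlc1 (r = 0.986), the thyroid hormone receptor gene Thra (0.982) and Col20a1 (0.981). St18 was followed by Ghitm (0.994), Ugt8a (0.985), the enzyme that makes the myelin lipid galactosylceramide, and Wdfy1 (0.981). Zfp488 was followed by Cln3, Ube2e2 and Tmem163 (0.977, 0.973 and 0.972), Sox8 by Cnppd1, Grn and Ypel3 (0.986, 0.986 and 0.982), and Sox10 by Spns1, Lmf1 and Ddit4 (0.967, 0.950 and 0.942). Olig2 was followed by Arhgef39, Haus5 and Tcf19 (0.983, 0.980 and 0.979) and Olig1 by Exosc6, Thop1 and Atf5 (0.980, 0.977 and 0.976). The lowest top values were those of Nkx2-2, with Ctdsp1, Btd and Fbxo7 (0.955, 0.924 and 0.919). Within the 8 genes, r was 0.92 between Olig1 and Olig2, −0.90 between Tcf7l2 and Olig2, and 0.23 between Nkx2-2 and St18.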

How the data were processed

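The deposited table held FPKM values made by the authors with OmicSoft ArrayStudio on the mm10 refGene gene model from TruSeq Stranded mRNA libraries. Aligner and counting settings are not given in the sources used here. A second table, from which coordinates and exon lengths were taken, holds the authors' own fold changes and p-values of siSbp2l against each control (made with DESeq2, per the labels), which were not used. Groups came from the sample labels. Cultures were 2 independent replicates, with pups pooled.

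Values were tested as log2(FPKM + 1) with limma 3.58.1 (R 4.3.3, trended and robust moderation) on genes with at least 1 FPKM in at least 2 libraries: 12 libraries for comparisons within day 3, all 14 for those with Day0. The p-values were adjusted over all genes tested (Benjamini-Hochberg), and a gene was called at 2-fold and an adjusted p under 0.05. The fit was tested on simulated data with independent noise and no GC trend, so that test does not cover differences such as those of the non-treat pair. Fold changes are on this log2 scale and understate changes of low genes. Depth came from the steps between low values (0.2 FPKM or more, 50 fragments or fewer), of which 88.8% to 92.5% were within 0.1 of a whole fragment for genes with 1 transcript. Intervals on 0 counts cover counting error only. GC content was that of the longest GENCODE M21 transcript.

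The genes, lists and tests were chosen with earlier results of these data known. The text names all 10 genes, list genes called in a knockdown, the relative with the highest mean level in a family, and the 3 genes most correlated with each. Genes of the lists named for the step from Day0 to day 3 were added after their values were seen. 1 gene of the list of other promoting factors and 1 of the Schwann cell markers are not reported here and were left out of counts, medians and sums. Alternatives were other pseudocounts, filters, scalings, fits, left-out libraries, a replicate block and, added after seeing the data, removal of the GC trend and of Rxrg from its list.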

Additional observations from a re-analysis of the deposited data

Results flagged for a closer look

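Zfp488 differed between the knockdowns in a direct test: it was lower in siSbp2l than in siPdgfra by 1.10 on the log2 scale (−1.10, adjusted p = 1.25e-05 with limma), with 45.1 and 48.2 FPKM against 108 and 95.1 FPKM. Over all alternatives this difference lay between −1.19 and −1.01, with an adjusted p of 0.000389 or less. NC siRNA#2 read 104 and 111 FPKM and the other 6 control libraries 64.6 to 77.5 FPKM.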

How the results depend on the processing

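Of 1584 values of single genes under the alternatives, 1555 kept their direction and stayed called or not called. This count leaves out moves across an adjusted p of 0.05 below 2-fold. Passing at any fold in the main fit, but not under every alternative, were Nkx2-2 (controls against Day0, siSbp2l, between the knockdowns), Tcf7l2 (siSbp2l), Olig1 and Zfp488 (siPdgfra). So were Olig2 (between the knockdowns), St18 (siRNA against no siRNA) and Sox10 (both knockdowns against Day0). With a pseudocount of 0.1, the genes called numbered 2 in siPdgfra against the controls and 2 between the knockdowns, St18 being added (−1.04 and −1.01). With a pseudocount of 5, 0 were called in siSbp2l against the controls, 0 against all 4 controls, 0 in siPdgfra against the controls and 0 between the non-targeting siRNAs, since St18 (−0.99), Tcf7l2 (−0.94) and Nkx2-2 (−0.96) fell just short of 2-fold, and St18 against Day0 was no longer past it in siSbp2l (0.50) or siPdgfra (0.89). Without the non-treat group, 0 were called in siPdgfra, 1 in siSbp2l and 6 in the controls against Day0. With no fold threshold, 4 passed in siSbp2l, 4 in siPdgfra, 5 between the knockdowns, 2 between the non-targeting siRNAs, 2 against cells without siRNA, 8 and 7 against Day0 (siSbp2l, siPdgfra), and 2 against all 4 controls in either knockdown. Values that turned were near 0: Sox8 in siSbp2l (−0.025, median-ratio scaling) and between siRNA and no siRNA (−0.017, upper-quartile scaling). Over the left-out libraries, Sox8 between siRNA and no siRNA ran from −0.0606 to 0.1434, Sox10 there from −0.0996 to 0.3506 and Nkx2-2 there from −0.2199 to 0.1371 (ends from leaving out non-treat replicate 1 or 2), Nkx2-2 in siPdgfra from −0.1412 to 0.0374 (likewise) and Sox10 between the knockdowns from −0.045 to 0.2594 (siPdgfra replicate 2 or 1). Their cause was not tested. Left-out libraries made calls of Sox10 in the controls against Day0 (1.002 without Day0 replicate 1), of Nkx2-2 in siSbp2l against Day0 (1.06 without it), and of Olig2 and Olig1 in siPdgfra against Day0 (−1.14 each without Day0 replicate 2, −1.07 and −1.03 without siPdgfra replicate 1). With the GC trend removed, both were also called there (−1.19 and −1.16), and Olig2 was with median-ratio scaling (−1.02), upper-quartile scaling (−1.01) and a pseudocount of 0.1 (−1.003).

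Replicate numbers showed no clear pairing of the samples: the replicate differences correlated over 0.1 in 4 of 21 pairs of groups (r from −0.38 to 0.47). Since these differences also went with GC content (rho −0.77 in non-treat, −0.49 in Day0, 0.44 in NC siRNA#1), they cannot decide whether groups shared cultures. A fit with a replicate block gave 6 genes called in the controls against Day0, 1 in siSbp2l, 1 in siPdgfra and 1 between the knockdowns, as did the fit without it.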

Other observations

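An RNA gene on the opposite strand, 2810468N07Rik (chr17:25570811-25575043, plus strand), starts 124 bases from the start of Sox8. It read 12.4 and 10.8 FPKM at Day0, 53.8 to 106 FPKM in the 8 control libraries, 59.97 and 66.3 in siSbp2l and 77.9 and 66.9 in siPdgfra, so that it was higher at day 3 than at Day0 in every library, as was Sox8. In NC siRNA#1 it was highest (91.6 and 106 FPKM), where Sox8 was among its lower day 3 levels (123 and 132 FPKM). It was chosen for its position, after its values were seen, and was not tested.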
